A study of Mus musculus with 6 samples.

Results

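The myeloid granule and receptor genes are a set of 32 mouse genes that mark neutrophils, monocytes and macrophages rather than B cells: 13 genes of granule proteins, 5 of transcription factors and 14 of surface and sensing receptors. Each gene was placed in the genomic bin of about 100 kb that holds its start on mm10, and each bin was counted once. The 32 genes fell into 29 bins of the 26731 listed, because Elane and Prtn3, S100a8 and S100a9, and Lyz1 and Lyz2 share a bin. All 29 bins were among the 23644 autosomal bins kept for the analysis.

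Contacts of these bins were measured by in situ Hi-C, in which neighbouring DNA ends are ligated inside intact nuclei and a sequenced read pair stands for 1 contact of the pair of places it maps to. There were 6 libraries of B-cell progenitors, in biological duplicate for each of 3 genotypes. The Erg KO mice were Rag1CreT/+;Erg fl/fl, in which a Cre recombinase driven by the Rag1 locus deletes the floxed alleles of Erg in early lymphoid progenitors. The CreT control was Rag1CreT/+ and kept Erg intact, while the Erg fl/fl control was Rag1Cre+/+;Erg fl/fl, with floxed alleles and no Cre. The background strain was written as C56BL/6 for all mice, and the labels give no age for these mice, while the methods state 1 age range for all mice of the study. The second replicates of Erg KO and of the Erg fl/fl control were male and the other 4 libraries female. All cells were marrow cells depleted of mature lineages, grown for 8 days on OP9 stromal cells, a mouse marrow feeder line, with SCF, IL7 and FL, and then selected for the B-lineage surface protein B220. The study's methods for such cultures list antibodies to Mac1 and Gr1 among those used for the depletion, and these recognise products of the members Itgam and Ly6g. The study calls the Erg KO cells pre-proB and the control cells proB, so that loss of Erg and developmental stage cannot be told apart here.

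Granulocytes store proteases, antimicrobial peptides and metal-binding proteins in granules that are filled in successive steps of maturation in the marrow. Transcription factors of the C/EBP family, with Gfi1, drive the granule genes, while receptors for colony-stimulating factors, chemokines, antibodies and microbial products equip mature myeloid cells to grow, migrate and respond. In lymphoid progenitors these genes are normally kept at a low level. Erg, the deleted gene, encodes an ETS transcription factor, a family whose members bind DNA at a GGAA core and which includes PU.1, the factor that the granulocyte and monocyte lineages depend on. Hi-C does not measure RNA, so neither the expression of the members nor the labelled cell type could be checked against marker genes.

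The promoters of the genes at the extremes of the result are shown because they give the ETS core that Erg and PU.1 both recognise. S100a8 and Elane lie in the granule protein bins with the largest loss of local contacts, Csf3r in the bin with the largest change of insulation, and Mmp8 in the granule protein bin that did not pass. They are printed 5′ to 3′ on the plus strand of GRCm38.p6, from the RefSeq table, which gives the 250 bases before its own start of each gene. At S100a8, Csf3r and Elane the start used to place the gene lies inside that window, and the printed stretch ends before it, after 157, 141 and 185 bases. Each GGAA or its reverse complement TTCC is in capitals.
S100a8 (chr3:90668821-90668977): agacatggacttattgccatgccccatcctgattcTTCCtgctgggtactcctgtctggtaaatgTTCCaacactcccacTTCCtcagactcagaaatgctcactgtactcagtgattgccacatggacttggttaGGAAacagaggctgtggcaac
Csf3r (chr4:126024409-126024549): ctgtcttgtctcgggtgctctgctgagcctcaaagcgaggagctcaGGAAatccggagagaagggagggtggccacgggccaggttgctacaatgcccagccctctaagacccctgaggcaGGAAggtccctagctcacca
Elane (chr10:79886062-79886246): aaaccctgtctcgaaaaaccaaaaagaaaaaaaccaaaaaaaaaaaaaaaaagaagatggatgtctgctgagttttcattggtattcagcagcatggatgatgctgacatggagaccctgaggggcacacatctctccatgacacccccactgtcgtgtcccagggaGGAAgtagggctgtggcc
Mmp8 (chr9:7558179-7558428): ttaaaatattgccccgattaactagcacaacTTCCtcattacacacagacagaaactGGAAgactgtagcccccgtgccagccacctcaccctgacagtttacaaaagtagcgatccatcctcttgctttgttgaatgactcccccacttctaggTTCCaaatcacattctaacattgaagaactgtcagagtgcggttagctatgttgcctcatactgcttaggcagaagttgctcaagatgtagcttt

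Of the 32 members, 26 had a promoter in the RefSeq table used, and the counts here are over its full windows of 250 bases. GGAA, searched on both strands, was in 25 of these 26 promoters and in 93.4% of all 27025 promoters of the same length. The printed stretches hold 4 matches at S100a8, 3 at Mmp8, 2 at Csf3r and 1 at Elane. The longer GAGGAA, the core of the PU box that PU.1 binds, which contains GGAA, was in 13 of the 26 and in 23.1% of all promoters. TTGCNNAA, a C/EBP half-site pair, was in 9 of the 26 and in 9.55% of all promoters. A match is a description of the letters and not a measured binding site, and no binding data were used.

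The bins of the members were unlike the average bin before any comparison between genotypes. Their median GC content was 45.9%, against 43.7% in all kept bins with a gene start and 41.5% in all kept bins. Of the 29 bins, 24 were in the 3 deciles of bins with the most GC. They held a median of 3 starts of protein-coding genes, against 0 over all kept bins, and a median of 33729 read-pair ends summed over the 6 libraries, against 25317.5. The compartment score, which is positive for the gene-rich, active A compartment and negative for the inactive B compartment, was above 0 in the control libraries in 28 of 29 member bins. That is 96.6% of them, against 74.3% of bins with a gene start and 48.1% of all kept bins. Tlr4 was the exception, with a mean control score of -0.12 and a GC content of 38.5%. The bins therefore report their neighbourhoods as well as the named genes: Cd68 shares its bin with the starts of 11 other protein-coding genes, Fcer1g with 9 and Cd14 with 8, while Tlr2, Tlr4, Gfi1 and Adgre1 were the only protein-coding starts in theirs.

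The libraries held 58335904 and 57259415 read pairs for Erg KO, 62155453 and 68085468 for the CreT control, and 43924865 and 29014581 for the Erg fl/fl control. The share of read pairs between chromosomes was 32.3% and 34.6% in Erg KO, 24.7% and 26.8% in the CreT control, and 24.3% and 21.6% in the Erg fl/fl control. Both KO libraries thus had the highest shares, and this share moved with the comparisons below, in whose results its part was not tested. Erg fl/fl control replicate 2 was the shallowest library and stood apart: its local contacts over all kept bins correlated with those of the other libraries at 0.749 to 0.966, and it was the highest of the 6 libraries in most member bins. Its total is below the range of library sizes that the methods state, and whether its table is complete is not known. Without it 25 of the 29 member bins were lower in local contacts (median log2 change -0.38) and 24 in insulation score (median -0.37). The bin of Erg itself (chr16:95500198-95599536) had a log2 change in local contacts of -0.42 ± 0.06 (SE), but deleted exons are too short to be seen in bins of this size, so Hi-C gave no check of the deletion. The share of contacts on the X chromosome, at 2.23% to 2.51% in the 2 male and 4.26% to 4.46% in the 4 female libraries, separated the sexes as labelled.

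Local contacts of nearly all member bins were lower in Erg KO than in both controls, and Tlr4 was the member that went the other way. Local contacts are the read pairs that join a bin to bins 200 kb to 2 Mb away on the same chromosome, scaled to a common library size by TMM. Of the 29 bins, 27 were lower in Erg KO than in the mean of both controls, 1 was higher and 1 did not pass an adjusted p of 0.05 (edgeR's quasi-likelihood test with mouse sex in the model and Benjamini-Hochberg adjustment). Over all 23644 kept bins, 67.6% passed in either direction and 33.2% were lower. The median log2 change was -0.42 over the member bins and 0.01 over all kept bins. Both KO libraries lay below all 4 control libraries in 26 member bins and in 33.7% of all kept bins, and the sign was the same against each control in all 29. Between the CreT and Erg fl/fl controls no bin passed in edgeR, with 2185 bins and 5 member bins at an unadjusted p under 0.05. Each value rested on 283 to 2132 read-pair ends per bin and library. With 2 replicates a group, 2 residual degrees of freedom remained, and an exact permutation test of 2 against 4 libraries could not give a p under 0.0667.

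**Figure D1:**
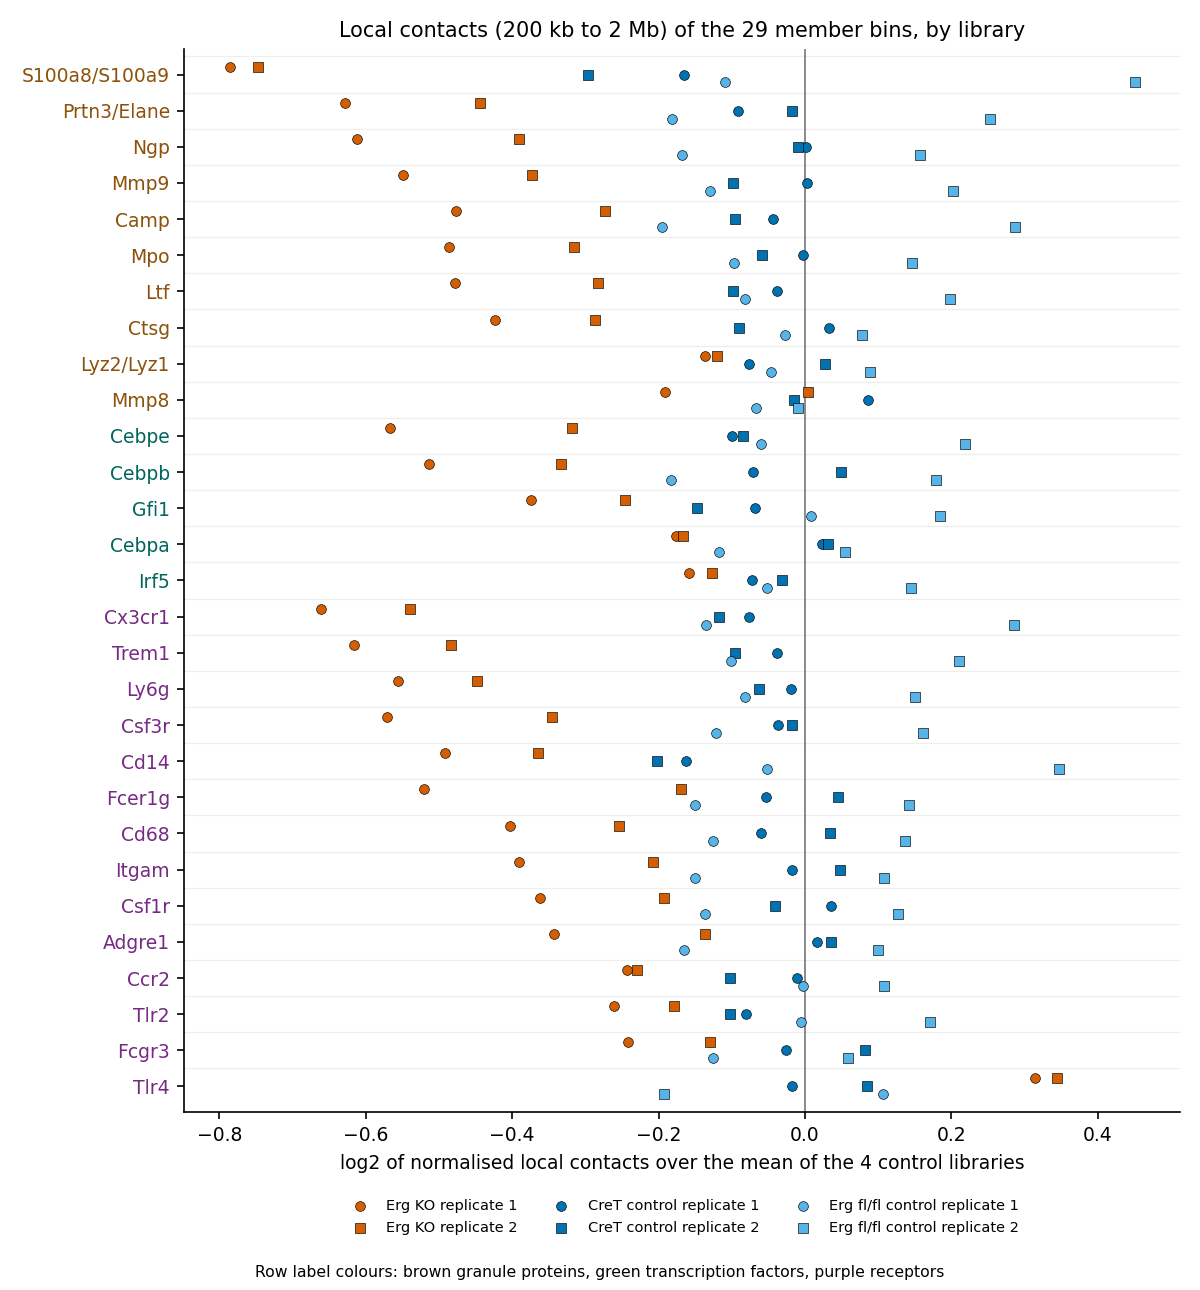
Local contacts of the 29 member bins in each library, as log2 of the normalised value over the mean of the 4 control libraries (horizontal axis), with 1 row a bin. The Erg KO libraries lie left of all 4 controls in 26 rows and right of them for Tlr4, and Erg fl/fl control replicate 2 is the highest library in most rows.

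The granule protein bins had the largest median loss of the 3 roles. Of the 10 bins, 9 were lower in Erg KO, with a median log2 change of -0.45. S100a8 and S100a9 encode the subunits of calprotectin, a metal-binding protein that fills the cytosol of neutrophils, and their bin (chr3:90600468-90700805) also holds S100a4, S100a5, S100a6 and S100a7a. It had 453 and 465 normalised local contacts in Erg KO, 697 and 636 in the CreT control, and 725 and 1068 in the Erg fl/fl control. Both KO values were below every control value, and the log2 change was -0.82 ± 0.09 (SE, adjusted p = 2.81e-07), which is 43.4% lower and the largest change of any member bin.

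Elane, neutrophil elastase, and Prtn3, proteinase 3, are serine proteases of the primary granules and neighbours in 1 bin (chr10:79800464-79899774). That bin had 916 and 1041 normalised local contacts in Erg KO, 1329 and 1398 in the CreT control, and 1248 and 1687 in the Erg fl/fl control. These groups did not overlap, and the log2 change was -0.61 ± 0.06 (SE, adjusted p = 1.47e-07). Ngp encodes a protein of the secondary granules of neutrophils (bin chr9:110399967-110500167), where 875 and 1020 were counted in Erg KO, 1339 and 1328 in the CreT control, and 1190 and 1491 in the Erg fl/fl control. Erg KO was again below every control, with a log2 change of -0.57 ± 0.06. For Mmp9, gelatinase B, the bin (chr2:164900503-164999576) had 1087 and 1229 in Erg KO, 1594 and 1487 in the CreT control, and 1454 and 1831 in the Erg fl/fl control. Its log2 change was -0.52 ± 0.06, with no overlap between Erg KO and the controls.

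Camp, Mpo and Ltf lay close together in size of change. Camp encodes cathelicidin, an antimicrobial peptide (chr9:109800001-109899806), and its bin had 810 and 933 normalised local contacts in Erg KO, 1094 and 1055 in the CreT control, and 984 and 1375 in the Erg fl/fl control, a log2 change of -0.45 ± 0.07. Mpo encodes myeloperoxidase, which makes hypochlorous acid (chr11:87699779-87799634), and had 835 and 939 in Erg KO, 1168 and 1123 in the CreT control, and 1093 and 1294 in the Erg fl/fl control, a log2 change of -0.45 ± 0.06. Ltf encodes lactoferrin, an iron-binding protein (chr9:110999852-111099813), and had 690 and 789 in Erg KO, 935 and 897 in the CreT control, and 907 and 1102 in the Erg fl/fl control, a log2 change of -0.44 ± 0.07. In these bins every KO value was lower than every control value. Ctsg, the protease cathepsin G, lies among granzyme genes (Gzme, Gzmd, Gzmg and Gzmn) (chr14:56100031-56200089) and had 546 and 600 in Erg KO, 749 and 687 in the CreT control, and 718 and 772 in the Erg fl/fl control. Its log2 change was -0.38 ± 0.07, without overlap.

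The remaining granule bins changed least. Lyz1 and Lyz2, the lysozymes that cut bacterial cell walls (chr10:117199944-117299865), had 1168 and 1182 normalised local contacts in Erg KO, 1219 and 1309 in the CreT control, and 1244 and 1366 in the Erg fl/fl control. Both KO values were just under the lowest control, and the log2 change was -0.15 ± 0.06 (SE, adjusted p = 0.0355), a call lost without any 1 of 4 libraries (both CreT libraries and both male ones, replicate 2 of Erg KO and of the Erg fl/fl control). Mmp8, a neutrophil collagenase in a bin with Mmp10 and Mmp27 (chr9:7499939-7599972), had 932 and 1066 in Erg KO, 1129 and 1052 in the CreT control, and 1015 and 1057 in the Erg fl/fl control. Erg KO replicate 2 lay within the controls, and the log2 change of -0.12 ± 0.06 did not pass (adjusted p = 0.0836). Without either male library (replicate 2 of Erg KO or of the Erg fl/fl control) it passed.

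All 5 bins of transcription factors were lower in Erg KO, with a median log2 change of -0.34. Cebpe, which acts late in granulocyte maturation (chr14:54699843-54800138), had 892 and 1060 normalised local contacts in Erg KO, 1233 and 1246 in the CreT control, and 1267 and 1538 in the Erg fl/fl control, a log2 change of -0.50 ± 0.06. Cebpb, used in emergency granulopoiesis and in macrophages (chr2:167599980-167699888), had 1165 and 1320 in Erg KO, 1584 and 1722 in the CreT control, and 1465 and 1883 in the Erg fl/fl control, a log2 change of -0.49 ± 0.06. Gfi1, a repressor needed for neutrophils and also active in lymphoid cells (chr5:107700178-107800078), had 820 and 896 in Erg KO, 1014 and 960 in the CreT control, and 1070 and 1208 in the Erg fl/fl control, a log2 change of -0.34 ± 0.06. For these factors no KO value reached the lowest control value. Cebpa, required for entry into the granulocyte and monocyte lineage (chr7:35099899-35199977), had 932 and 938 in Erg KO, 1070 and 1077 in the CreT control, and 971 and 1094 in the Erg fl/fl control, a log2 change of -0.19 ± 0.06 (SE, adjusted p = 0.0093). Irf5, an interferon regulatory factor of inflammatory macrophages (chr6:29499886-29600132), had 1066 and 1089 in Erg KO, 1132 and 1165 in the CreT control, and 1148 and 1316 in the Erg fl/fl control, a log2 change of -0.17 ± 0.06 (SE, adjusted p = 0.0177). Both were below the controls by a small margin. The call at Irf5 was lost without either CreT or either male library, and that at Cebpa without either male library. Both calls were also lost with no sex term in the fit.

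Receptors ranged the most widely, with 13 of 14 bins lower, 1 higher and a median log2 change of -0.36. Cx3cr1 encodes the fractalkine receptor of monocytes (bin chr9:119999709-120099701, shared with Xirp1 and Ccr8). Its bin had 663 and 722 normalised local contacts in Erg KO, 995 and 968 in the CreT control, and 956 and 1280 in the Erg fl/fl control. These groups were apart, with a log2 change of -0.66 ± 0.07 (SE, adjusted p = 1.59e-07). Trem1, an activating receptor of neutrophils and monocytes in a cluster with Trem3, Treml4 and Treml2 (bin chr17:48199733-48300095), had 720 and 789 in Erg KO, 1075 and 1033 in the CreT control, and 1029 and 1277 in the Erg fl/fl control. Its log2 change was -0.60 ± 0.06, with no overlap. Ly6g, the surface antigen of mouse neutrophils, shares its bin (chr15:75099967-75199873) with Ly6c2 and had 846 and 912 in Erg KO, 1228 and 1191 in the CreT control, and 1176 and 1381 in the Erg fl/fl control. There too the KO values were the lowest, with a log2 change of -0.54 ± 0.06.

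The growth factor receptors and the endotoxin co-receptor followed. Csf3r, the receptor for granulocyte colony-stimulating factor (bin chr4:126000185-126099913), had 847 and 990 normalised local contacts in Erg KO, 1227 and 1244 in the CreT control, and 1156 and 1407 in the Erg fl/fl control, a log2 change of -0.52 ± 0.06. Cd14, which hands bacterial endotoxin to its receptor (chr18:36700051-36800066), had 611 and 667 in Erg KO, 767 and 747 in the CreT control, and 829 and 1093 in the Erg fl/fl control, a log2 change of -0.48 ± 0.07. Csf1r, the receptor for macrophage colony-stimulating factor (chr18:61100200-61200037), had 1038 and 1167 in Erg KO, 1367 and 1296 in the CreT control, and 1214 and 1457 in the Erg fl/fl control, a log2 change of -0.33 ± 0.06. At all of them the KO libraries were below the controls, by the widest margin at Csf3r.

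Among receptors of phagocytes, Fcer1g, the signalling chain that several Fc receptors share (chr1:171200210-171299436), had 807 and 1030 normalised local contacts in Erg KO, 1116 and 1194 in the CreT control, and 1043 and 1277 in the Erg fl/fl control, a log2 change of -0.42 ± 0.06. Cd68, a lysosomal membrane protein of macrophages (chr11:69599889-69700410), had 1158 and 1283 in Erg KO, 1468 and 1567 in the CreT control, and 1403 and 1683 in the Erg fl/fl control, a log2 change of -0.38 ± 0.06. Itgam, an integrin chain of granulocytes and macrophages (chr7:127999896-128100789), had 970 and 1102 in Erg KO, 1257 and 1315 in the CreT control, and 1146 and 1371 in the Erg fl/fl control, a log2 change of -0.35 ± 0.06. None of these 3 bins overlapped between Erg KO and the controls, though at Fcer1g Erg KO replicate 2 came close to the lowest control. Adgre1, an adhesion receptor used as a macrophage marker (chr17:57299897-57400073), had 836 and 964 in Erg KO, 1072 and 1086 in the CreT control, and 945 and 1135 in the Erg fl/fl control. Its groups overlapped, since Erg KO replicate 2 exceeded Erg fl/fl control replicate 1, and its log2 change was -0.30 ± 0.06 (SE, adjusted p = 0.000225).

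The smallest losses among receptors were at Ccr2, Tlr2 and Fcgr3. Ccr2, the chemokine receptor that brings monocytes out of the marrow, lies in a short bin (chr9:124100072-124160922) and had 448 and 452 normalised local contacts in Erg KO, 526 and 493 in the CreT control, and 529 and 571 in the Erg fl/fl control. Tlr2, which senses bacterial lipoproteins (chr3:83800006-83900215), had 818 and 866 in Erg KO, 927 and 913 in the CreT control, and 977 and 1104 in the Erg fl/fl control. Fcgr3, a low-affinity receptor for IgG (chr1:171000495-171100067), had 814 and 880 in Erg KO, 946 and 1019 in the CreT control, and 882 and 1003 in the Erg fl/fl control. Both KO values were below the controls in each, by the narrowest margin at Fcgr3. The log2 changes were -0.25 ± 0.09 at Ccr2 (SE, adjusted p = 0.0151), -0.25 ± 0.06 at Tlr2 and -0.22 ± 0.06 at Fcgr3. The call at Ccr2 was lost without either CreT library, and those at Ccr2 and Fcgr3 with no sex term in the fit. Tlr4, the endotoxin receptor (bin chr4:66799935-66899891), was the opposite case, with 555 and 567 in Erg KO, 441 and 473 in the CreT control, and 481 and 390 in the Erg fl/fl control. Both KO values were above all controls, and the log2 change was 0.36 ± 0.09 (SE, adjusted p = 0.00176). Bins of the same GC decile and gene count as Tlr4 had a median of 0.20, with Tlr4 at percentile 80.5, and with offsets on GC content its change was 0.09 ± 0.07 and did not pass (adjusted p = 0.367).

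Bins with the same base composition and gene count as the members had, at the median, a loss nearly as large. Over all kept bins the median log2 change was 0.50 in the decile with the least GC, and -0.20, -0.30 and -0.46 in the 3 deciles with the most. By the number of gene starts it was 0.17 with none, -0.10 with 1, -0.24 with 2 to 3, and -0.39 with 4 or more. When each member bin was set beside all kept bins of its own GC decile and gene count class, the median of these class medians was -0.35, against -0.42 for the members. The members differed from their class median by a median of -0.08 (range -0.51 to 0.29), with 19 below and 10 above it. Of the 29, 12 lay under the lower quartile of their class and 5 over its upper quartile. Beside classes of total contacts and gene count the class medians had a median of -0.40 and the members differed from them by -0.05, with 21 below and 8 above. Fits with offsets on GC content and on total contacts are given below, and the part that GC content and depth play in the loss was not tested.

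Single members stood at the edges of their classes in both directions. The bin of S100a8 and S100a9 was at percentile 0.741 of the 135 bins of its class by GC and gene count, whose median was -0.31. Ly6g was at percentile 3.29 of its class (median -0.26), Gfi1 at 7.15 (median -0.07), Ccr2 at 7.66 (median 0.07), and Trem1 and Cx3cr1 each at 8.04. At the other end, Cebpa was at percentile 98.5 (class median -0.48), Lyz1 and Lyz2 at 85.9 and Cd68 at 84.5. The bin of Elane and Prtn3, with the next largest loss among granule proteins after S100a8 and S100a9, was at percentile 18.6 of bins whose median was -0.50, and Mmp9 at 41.1.

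**Figure D2:**
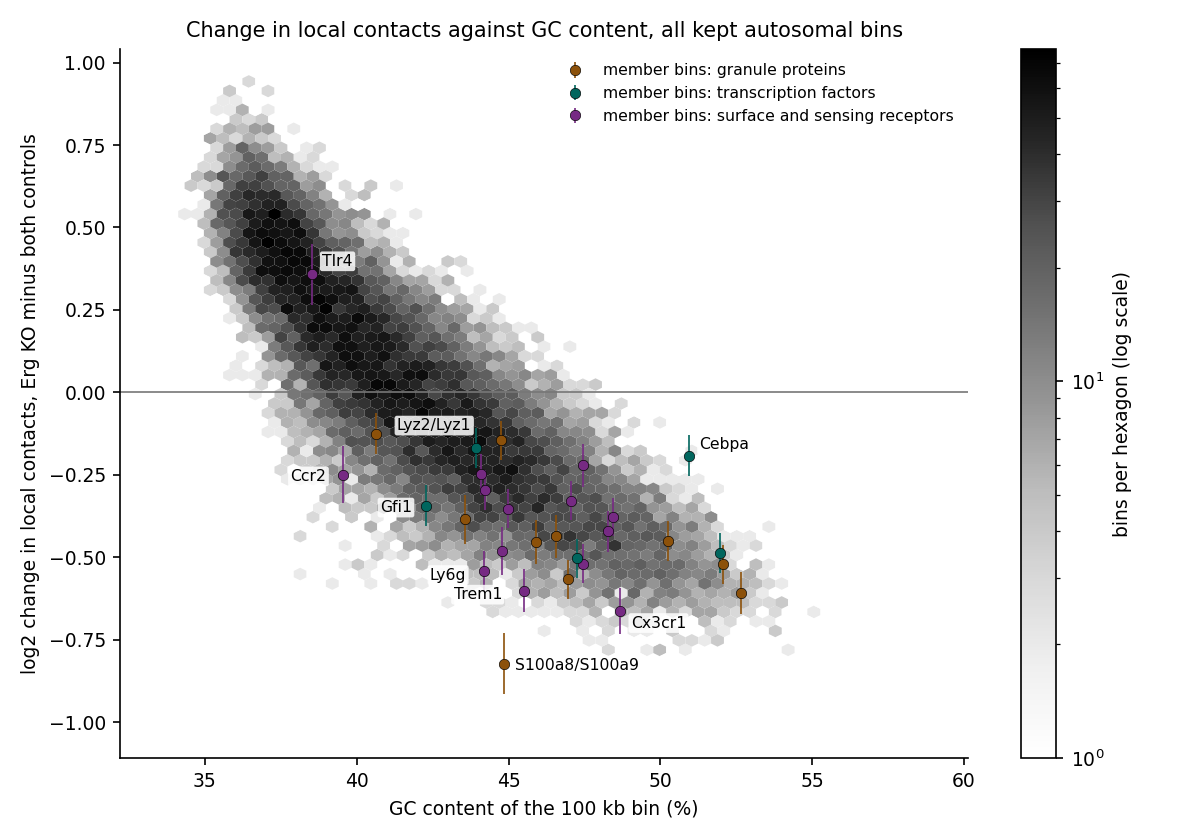
Log2 change in local contacts, Erg KO minus both controls (vertical axis), against the GC content of the bin in percent, with all 23644 kept bins as shaded hexagons (bins per hexagon on a log scale) and the 29 member bins as points with SE. Change falls as GC rises over all bins, S100a8/S100a9 (-0.82) lies under the cloud and Cebpa (-0.19) above it at its GC content.

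When the trend of each library with GC content was taken into the offsets of the fit, 14 member bins were lower, 1 was higher and 14 did not pass, with a median log2 change of -0.13. Over all kept bins 17.1% were then lower. The 14 were S100a8/S100a9, Ccr2, Ly6g, Trem1, Gfi1, Cd14, Cx3cr1, Ctsg, Ngp, Mmp8, Camp, Csf3r, Cebpe and Itgam. S100a8/S100a9 kept a log2 change of -0.61 ± 0.08 and Ccr2 had -0.41 ± 0.07, whereas Elane/Prtn3 (-0.02 ± 0.05), Mmp9 (0.04 ± 0.05), Mpo (0.03 ± 0.06) and Cebpb (0.07 ± 0.05) did not pass. Cebpa was higher in this fit (0.32 ± 0.05). With offsets on total contacts instead, 8 member bins were lower (S100a8/S100a9, Cx3cr1, Trem1, Ngp, Ly6g, Camp, Ctsg and Ccr2), with 17.8% of all kept bins lower, and Cebpa, Irf5 and Tlr4 were higher. The median of the members was then -0.09. By role, the fit with GC offsets had 5 of 10 granule bins, 2 of 5 transcription factor bins and 7 of 14 receptor bins lower.

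Other gene lists showed how far the loss was shared. Of 46 bins of 50 other myeloid genes, 1 of which is also a member bin, 33 were lower and 1 higher, with a median log2 change of -0.35. The largest were at Ncf1 (-0.69 ± 0.07), a subunit of the phagocyte oxidase, Prss57 (-0.68 ± 0.07), a serine protease of neutrophil granules, and Lcn2 (-0.68 ± 0.06), which binds bacterial iron carriers. Of 23 bins of B-lineage genes 17 were lower, with a median of -0.21, led by Spib and Cd79b. Of 20 bins of T-lineage genes 15 were lower and 3 higher, with a median of -0.34, led by Lat and the neighbours Cd3d and Cd3g. Of 23 bins of stromal genes, which mark cells such as the OP9 feeder, 7 were lower and 7 higher, with a median of -0.10. With GC offsets the medians were -0.07 for other myeloid, -0.08 for B-lineage, 0.01 for T-lineage and 0.05 for stromal genes, against -0.13 for the members. In bulk libraries, a change in the share of cells of a type and a change of contacts within each cell cannot be told apart.

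Contacts across the member bins also fell. The insulation score is the log2 of observed over expected contacts between the 5 bins before and the 5 bins after a bin, so that a lower score means fewer contacts across it. Of 29 member bins 25 had a lower score in Erg KO, 1 had a higher one (Tlr4) and 3 did not pass (Cebpa, Mmp8 and Ccr2; limma, adjusted p of 0.05), while 65.8% of all scored bins passed in either direction and 26.3% were lower. The median change was -0.48 over the members and 0.08 over all scored bins. Both KO libraries were below all controls in 24 member bins, a count that was not made over all scored bins. No bin passed between the controls in limma, with 1948 bins and 2 member bins at an unadjusted p under 0.05.

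Csf3r had the largest change in insulation score, and was already at a place of few crossing contacts in the controls other than Erg fl/fl control replicate 2. Its scores were -1.68 and -1.33 in Erg KO, -0.73 and -0.97 in the CreT control, and -0.74 and -0.05 in the Erg fl/fl control. No KO score reached the lowest control, and the change was -1.01 ± 0.10 (SE, adjusted p = 0.000573). At Elane and Prtn3 the scores were -0.78 and -0.67 in Erg KO, 0.05 and -0.11 in the CreT control, and 0.07 and 0.68 in the Erg fl/fl control. That bin was near the expected value in the controls, except in Erg fl/fl control replicate 2, which was above it. In Erg KO the bin lay clearly under the expected value (change -0.99 ± 0.11). At S100a8 and S100a9 the scores were -2.49 and -2.17 in Erg KO, -1.58 and -1.87 in the CreT control, and -1.46 and -1.17 in the Erg fl/fl control. This bin had few crossing contacts in every library and the fewest in Erg KO (change -0.89 ± 0.10). Trem1 had -0.06 and 0.23 in Erg KO, 0.82 and 0.72 in the CreT control, and 0.60 and 1.08 in the Erg fl/fl control, a change of -0.82 ± 0.08, with the groups apart. Tlr4 had -0.10 and -0.04 in Erg KO, -0.23 and -0.18 in the CreT control, and -0.34 and -0.82 in the Erg fl/fl control. Its change was 0.38 ± 0.11 (SE, adjusted p = 0.0171), and the call was lost without either male library.

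**Figure D3:**
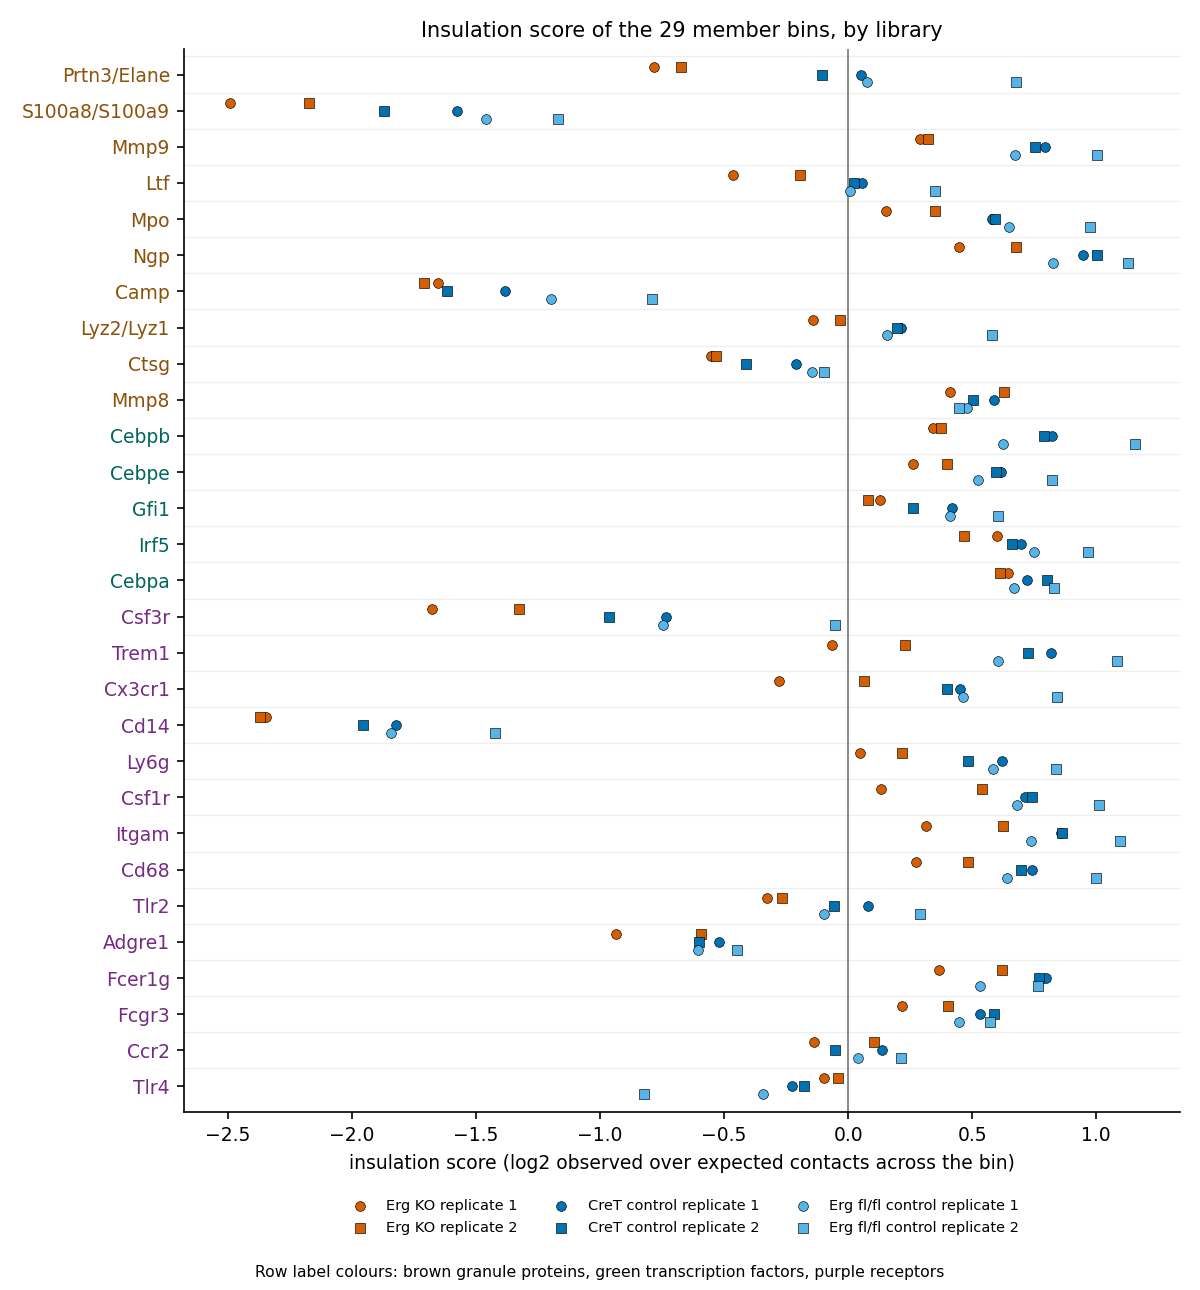
Insulation score of the 29 member bins in each library (log2 observed over expected contacts across the bin, horizontal axis), with 1 row a bin. The Erg KO libraries lie left of all controls in 24 rows, furthest at Csf3r (change -1.01), and right of them at Tlr4.

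The other 21 bins with a lower score had changes between -0.74 at Cx3cr1 and -0.25 at Irf5. By role 9 of 10 granule bins (median -0.50), 4 of 5 transcription factor bins (median -0.34) and 12 of 14 receptor bins (median -0.48) were lower. Beside the bins of the same GC decile and gene count class, whose class medians had a median of -0.35, the members differed by a median of -0.09, with 22 below and 7 above. After removal of each library's GC trend, 11 member bins were lower, against 11.8% of all scored bins, and 1 was higher (Cebpa, 0.44), with a median change of -0.16. S100a8/S100a9 (-0.64), Csf3r (-0.60) and Trem1 (-0.53) were the lowest of these. Of 45 bins of other myeloid genes 28 were lower and 5 higher (median -0.26). Of 22 bins of B-lineage genes 16 were lower and 0 higher (median -0.38), and of 20 bins of T-lineage genes 13 were lower and 1 higher (median -0.40). Of 23 bins of stromal genes 5 were lower and 8 higher (median 0.03).

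Compartment scores of the members did not pass in any bin. The score is the component of the correlation matrix of contacts that follows gene density, scaled to an SD of 1 within each chromosome and library. In limma 0 of 29 member bins passed, while 3.83% of all kept bins passed. At an unadjusted p under 0.05 were 4 member bins (Ccr2, Ctsg, Trem1 and Mpo) and 6607 of all 23644 kept bins. The median change was -0.03 over the members. The groups overlapped in 24 member bins, a count that was not made over all kept bins. In Erg KO and control libraries alike the scores of most members were above 1. The member bins therefore lay in the A compartment in every genotype, apart from Tlr4, whose score was near 0. Tlr4 had -0.21 and 0.10 in Erg KO, -0.02 and 0.03 in the CreT control, and -0.22 and -0.28 in the Erg fl/fl control. Mmp8 was the lowest of the others, above 0 in every library but close to it in some. Its scores were 0.06 and 0.48 in Erg KO, 0.36 and 0.35 in the CreT control, and 0.19 and 0.13 in the Erg fl/fl control.

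Among bins with the same sign against each control, the largest changes in score were negative. Ccr2 had 0.58 and 1.07 in Erg KO, 1.17 and 1.24 in the CreT control, and 0.87 and 0.98 in the Erg fl/fl control, a change of -0.31 ± 0.09 (SE, adjusted p = 0.112). Erg KO replicate 1 alone was low there, and the controls also stood apart from each other. Ctsg had 0.58 and 0.60 in Erg KO, 0.84 and 0.72 in the CreT control, and 0.84 and 0.84 in the Erg fl/fl control, a change of -0.22 ± 0.05 (SE, adjusted p = 0.0738), with both KO values under all controls. Trem1 had 1.01 and 1.27 in Erg KO, 1.30 and 1.28 in the CreT control, and 1.22 and 1.26 in the Erg fl/fl control, a change of -0.16 ± 0.06, again from Erg KO replicate 1. Ly6g had 0.65 and 0.68 in Erg KO, 0.86 and 0.82 in the CreT control, and 0.93 and 0.73 in the Erg fl/fl control, a change of -0.15 ± 0.06, with no overlap. The count of 0 depended on single libraries, since calls among the members and over all kept bins both moved when 1 library was left out. The median change of the members then ranged from -0.08 to -0.02. Among other lists, Chil3, a chitinase-like protein of myeloid cells, passed as lower (-0.68 ± 0.03, adjusted p = 0.0394 in limma). The stromal genes Prrx1, Col1a2, Vcam1 and Pdgfra passed as higher (0.31 to 0.40), with a median of 0.17 over the 23 stromal bins. These calls were near the threshold, as 0.0394 was the smallest adjusted p over all kept bins. No kept bin passed with no sex term or without either CreT library, nor against either control alone. The part of feeder cells in the values of the members was not tested.

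**Figure D4:**
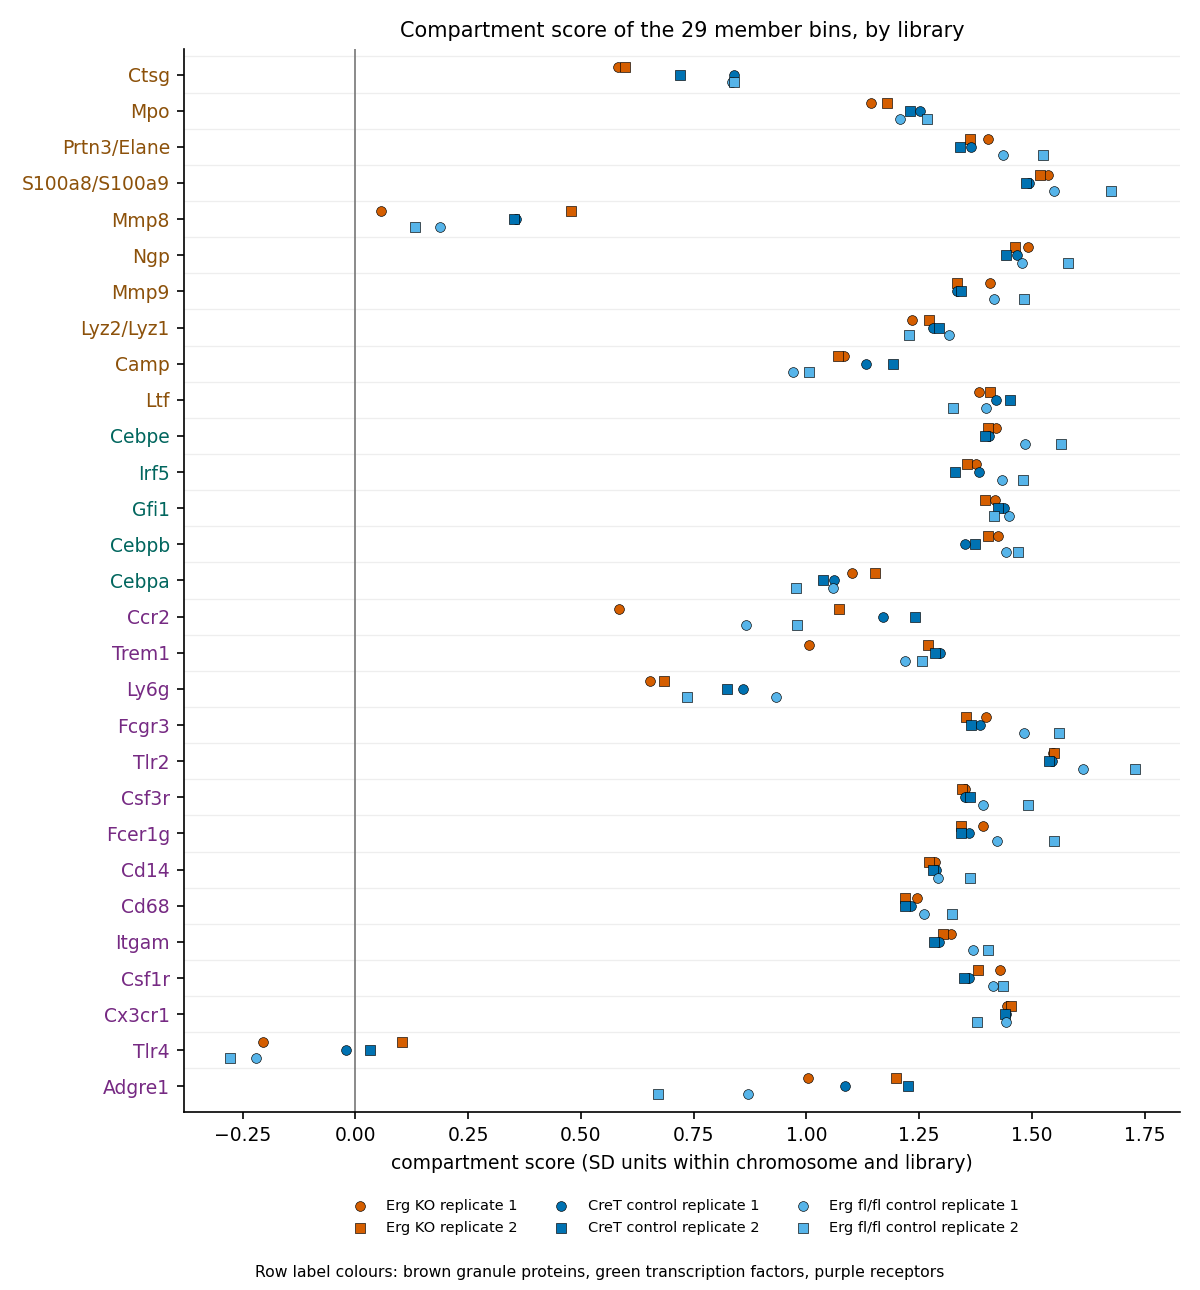
Compartment score of the 29 member bins in each library (SD units within chromosome and library, horizontal axis), with 1 row a bin. All rows but Tlr4 lie above 0 in every library, and Erg KO and control points overlap in 24 rows.

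Single pairs of bins were tested as well. Of 753823 tested bin pairs 2014 had a member bin at 1 end or both. Of these, 196 were lower in Erg KO and 6 higher (edgeR with loess offsets over abundance, adjusted p of 0.05), while 6.29% of all tested pairs passed and 3.16% were lower. These calls did not survive the loss of a library from the Erg KO or Erg fl/fl groups: in edgeR 0 member pairs passed once any 1 library of Erg KO or of the Erg fl/fl control was left out, while 136 and 164 were lower without CreT control replicate 1 and replicate 2. DESeq2 found 8 of the 2014 member pairs lower and none higher, with 4410 of all 753823 tested pairs called. Offsets that also corrected for GC content left 46 member pairs lower and 2 higher, with 6860 of all tested pairs called.

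By distance, the pairs that passed as lower were near ones, but the share that passes also depends on the read pairs of a pair. It does not give the size of the loss. The median log2 change of member pairs was -0.27 at 100 kb, -0.46 at 200 kb to 500 kb, -0.48 at 600 kb to 1 Mb and -0.36 at 1.1 to 2 Mb. Over all tested pairs it was 0.12, 0.07, -0.02 and -0.06. Of pairs 100 kb apart 44.8% of the member pairs were lower, against 9.99% of all tested pairs. At 200 kb to 500 kb the shares were 41.0% and 9.58%, at 600 kb to 1 Mb 16.9% and 5.39%, and at 1.1 to 2 Mb 5.04% and 1.88%. Over 2 Mb the members did not stand out, with 0.379% lower against 0.437% of all pairs. Summed over member bins, the log2 ratio of observed over expected contacts was 0.37 in Erg KO and 0.68 in the controls at 200 kb to 500 kb, and -0.01 in Erg KO and 0.33 in the controls at 600 kb to 1 Mb. The differences were -0.21 at 100 kb, -0.32 and -0.33 at these distances, -0.23 at 1.1 to 2 Mb, -0.08 at 2.1 to 5 Mb and -0.12 at 5.1 to 20 Mb. In all bins with a gene start in the 3 deciles with the most GC they were -0.20, -0.27, -0.32, -0.25, -0.12 and -0.14, which is the same course.

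**Figure D5:**
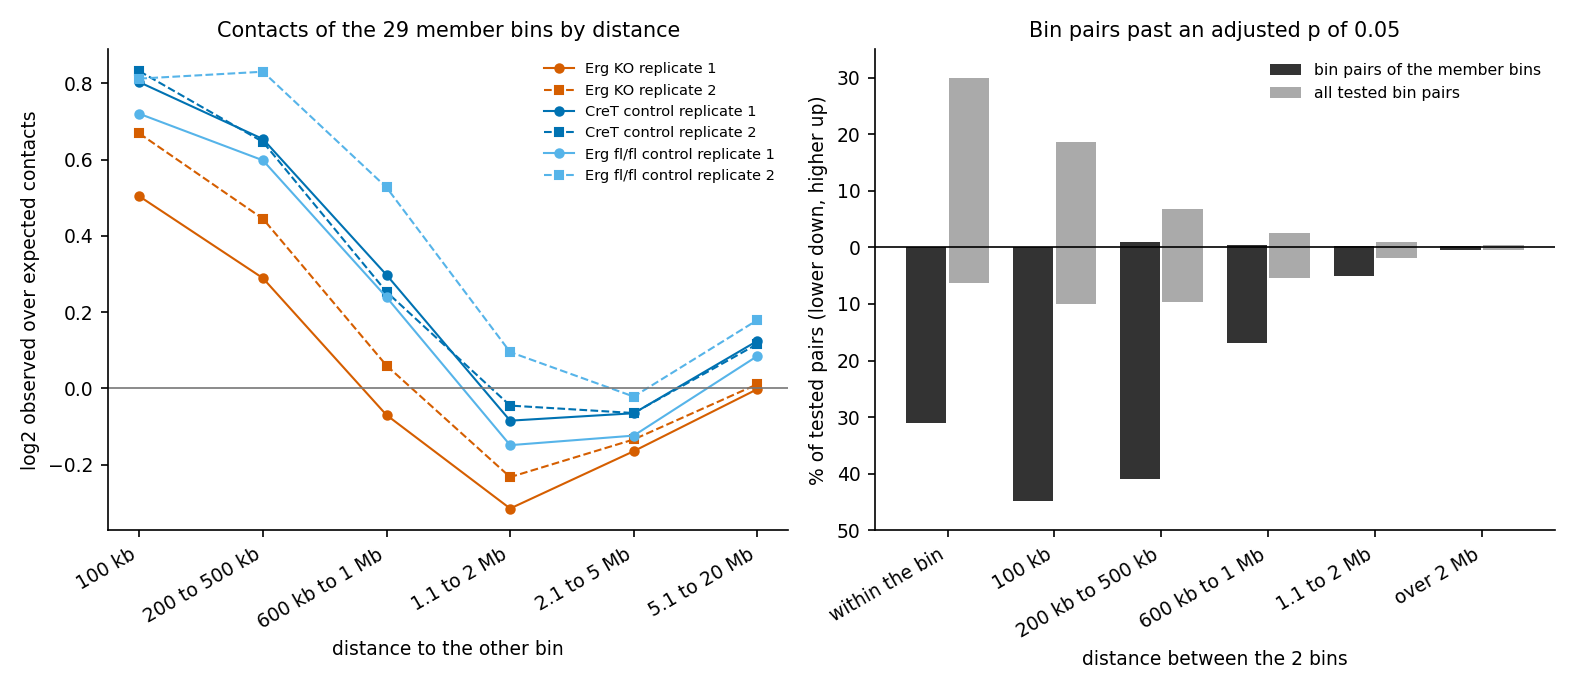
Left, log2 observed over expected contacts of the 29 member bins summed, by distance to the other bin and library; right, percent of tested bin pairs lower (downward bars) or higher (upward bars) in Erg KO, for member pairs and for all pairs. Both Erg KO lines run under all control lines at every distance, by the narrowest margin at 2.1 to 5 Mb. The share of lower member pairs falls from 44.8% at 100 kb to 0.379% over 2 Mb.

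The 6 pairs with the smallest p came from 3 members. The bin of Elane and Prtn3 and a bin 300 kb away, which holds Sbno2, Stk11 and Cirbp among others, were joined by 111 and 129 read pairs in Erg KO, 230 and 248 in the CreT control, and 163 and 170 in the Erg fl/fl control. After scaling these were 108 and 128 in Erg KO, 185 and 182 in the CreT control, and 173 and 280 in the Erg fl/fl control, a log2 change of -0.91 ± 0.12 (SE, adjusted p = 8.59e-09). Its pair with the next bin, where Bsg and Prss57 start, changed by -0.58 ± 0.08. Ngp lost contact with bins 200 kb (Nradd, Nbeal2 and Ccdc12), 300 kb (Myl3, Pth1r and Prss42) and 400 kb away (Prss44 and neighbours), with changes of -0.70 ± 0.10, -0.78 ± 0.11 and -1.11 ± 0.14. The last of these had 53 and 95 read pairs in Erg KO, 164 and 163 in the CreT control, and 121 and 114 in the Erg fl/fl control, and no control was as low as either KO library. Csf3r lost contact with the bin of Thrap3, Map7d1, Trappc3 and Col8a2, 200 kb away, where 98 and 115 read pairs were counted in Erg KO, 199 and 199 in the CreT control, and 147 and 157 in the Erg fl/fl control (change -0.88 ± 0.12). The members with the most lower pairs were Mmp9 (17), Cebpb (14), Cx3cr1 (14), Elane and Prtn3 (13) and Ngp (12). Of the 6 higher pairs 4 were pairs of Tlr4 with bins 200 kb to 1400 kb away, and Mmp8 had no called pair among 51.

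Members rarely touched each other enough to be tested. Of 10 tested pairs of member bins 1 passed as lower, that of Camp and Ngp, 600 kb apart on chromosome 9, with 16 and 17 read pairs in Erg KO, 32 and 38 in the CreT control, and 15 and 34 in the Erg fl/fl control (log2 change -0.93 ± 0.31, adjusted p = 0.0492). The groups overlapped before and after scaling for depth, since Erg fl/fl control replicate 1 was the lowest library. Between chromosomes, the 381 pairs of member bins held 77 and 103 read pairs in Erg KO, 108 and 96 in the CreT control, and 54 and 27 in the Erg fl/fl control. Over the number that the total contacts of the bins predict, this was 1.73 and 1.96 times in Erg KO, 2.27 and 1.68 in the CreT control, and 1.84 and 1.42 in the Erg fl/fl control. These groups overlapped, and every library was above the 1.33 to 1.40 of all bins with a gene start in the 3 deciles with the most GC and the 1.15 to 1.18 of all bins with a control compartment score above 0. Within chromosomes and over 2 Mb apart, 20 pairs of members had 2.14 and 2.25 times the contacts predicted by distance in Erg KO, 1.98 and 2.60 in the CreT control, and 1.81 and 1.76 in the Erg fl/fl control. No difference between Erg KO and the controls was seen in these sums, which were not tested.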

How the data were processed

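In situ Hi-C was measured in 6 libraries of 3 genotypes. According to the study's methods, the authors aligned reads to mm10 with bowtie2 after splitting them with cutadapt within diffHic, marked duplicates with Picard, removed dangling ends and overlong fragments, and counted read pairs into pairs of bins of 100 kb. The deposited values are these raw counts per bin pair, with no normalisation. The members and the gene lists were chosen with earlier results of these data known.

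Autosomal bins with 0.3 to 3 times the median total were kept. Local contacts (200 to 2000 kb) were fitted with edgeR 4.0.16 (TMM, quasi-likelihood test), and insulation and compartment scores with limma 3.58.1 in R 4.3.3. Terms were group and mouse sex, the contrast was Erg KO minus the mean of both controls, and p-values were adjusted by Benjamini-Hochberg over all bins (threshold 0.05). Insulation used 5 bins on each side. Compartment scores came from contacts smoothed over 3 bins, with the component of the first 3 that best followed gene density. Bin pairs had at least 10 read pairs and an abundance of 5 times that between chromosomes in 500 kb bins, not scaled for bin area (30 summed read pairs), with loess offsets (span 0.3). Classes held all kept bins of the same GC or total-contact decile and gene count. Alternatives were DESeq2 1.42.0, other scalings, windows and filters, GC and total-contact offsets, no sex term, a replicate block and leaving out each library. The scripts were tested on simulated data. Totals ran over 29014581 to 68085468 read pairs, and Hi-C read pairs carry no molecular identifiers. Replicates were biological duplicates by the methods. Members were named in full where they passed in any measure, of other lists genes that passed and up to 3 a measure with the largest change of the same sign against each control, and the 6 bin pairs with the smallest p. A few genes of the lists and bins are not reported here.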

Additional observations from a re-analysis of the deposited data

How the results depend on the processing

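Over the 29 member bins, local contacts kept direction and side of the threshold in 366 of 435 comparisons with an alternative and insulation in 267 of 318. Compartment score did so in 34 of 44, counted over 4 bins only (Ccr2, Ctsg, Trem1 and Ly6g). Leaving out 1 library gave 24 to 27 lower bins in local contacts (median -0.45 to -0.38; 13253 to 17658 bins called over all) and 0 to 1 higher in insulation. GC offsets left 14 lower in local contacts (median -0.132; 7905 of all bins called against 15976, 4033 lower against 7859), and total-contact offsets 8 lower and 3 higher (median -0.0923; 8760 called, 4197 lower). With no sex term 22 were lower and 1 higher in local contacts (median -0.35, with 11105 of all bins called and 5617 lower). The calls at Fcgr3, Irf5, Cebpa, Ccr2 and Lyz2/Lyz1 were then lost. The window of 500 kb to 5 Mb had 0 higher. With GC offsets these local changes turned positive: Cd68 0.0234, Cebpa 0.32, Cebpb 0.0695, Csf1r 0.00207, Fcgr3 0.13, Lyz2/Lyz1 0.0560, Mmp9 0.0404 and Mpo 0.0319. With total-contact offsets these did: Cebpa 0.17, Csf1r 0.13, Irf5 0.25, Lyz2/Lyz1 0.10, Mpo 0.0654 and Tlr2 0.0529. In insulation, 11 bins were lower with the GC trend removed (median -0.163; 9943 of all bins called against 15359, 2755 lower against 6147) and 19 lower and 0 higher with no sex term (9889 called, 3875 lower). With the GC trend removed Cebpa (0.44), Cebpb (0.0713), Cebpe (0.0293), Fcer1g (0.17), Fcgr3 (0.14), Mmp9 (0.0891) and Mpo (0.0357) turned positive. Mmp8 turned positive with no sex term (0.0158) and with a window of 10 bins (0.00437), and ranged from -0.102 to 0.149 without single libraries. The causes were not tested.

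Compartment calls among members ranged over 0 to 4 lower and 0 to 2 higher without single libraries (median -0.0766 to -0.0190), and 1 was lower without smoothing (Mpo; median -0.0443). Over all bins 0 to 7674 passed without single libraries (0 to 3742 lower), 1468 without smoothing, and 0 in limma with no sex term (3663 at an unadjusted p under 0.05) or with the replicate block (4256). Bin pairs with a member were 8 lower and 0 higher in DESeq2 (4410 of all pairs called against 47410), 46 and 2 with GC correction (6860), 103 and 4 with no sex term (22045), and 0 to 164 lower and 0 to 4 higher without single libraries (0 to 37570 of all pairs). In edgeR 0 pairs passed without Erg KO replicate 1, Erg KO replicate 2, Erg fl/fl control replicate 1 or Erg fl/fl control replicate 2, with 91061, 84870, 124566 and 70545 at an unadjusted p under 0.05. Leaving out either male library gave the same fit for insulation and compartment score, since the sex term absorbs a lone male, and nearly the same for local contacts (14659 bins called without that of Erg KO, 14677 without that of the Erg fl/fl control).

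By replicate number, correlations of deviations in local contacts were -0.18 (Erg KO and CreT), 0.54 (Erg KO and Erg fl/fl) and -0.39 (CreT and Erg fl/fl). Their signs differed, so they gave no pairing common to all groups. In Erg KO and the Erg fl/fl control replicate 2 was the male library, so sex and pairing cannot be told apart there. With the replicate block, the median change of the members was -0.41 in local contacts and -0.47 in insulation. Beside the sex term, however, the block term marks CreT control replicate 2 alone. The fit is then that without this library for insulation and compartment score, and nearly so for local contacts and pairs. The 2 settings are therefore not separate alternatives, and the block is no further check of pairing. The shallowest library limits what pairs over 2 Mb can show.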
